A study of Homo sapiens with 8 samples.

Results

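The keratin and keratin-associated protein (KRTAP) genes were followed in DLD1 cells, a human colorectal cancer cell line, on 8 single-colour arrays. Members were all non-control probes whose gene name begins with KRT or KRTAP and a number. This gave 150 genes, 62 of them keratins and 88 KRTAPs, of the 36337 names on the array, and 182 of its 50599 probes. There were 4 groups of 2 arrays. The siCONT mock group received a control siRNA and then ethanol, the siUHRF1 mock group received siRNA against UHRF1 and then ethanol, the siCONT TSA group received the control siRNA and then 300 nM trichostatin A (TSA), and the siUHRF1 TSA group received both. Transfection lasted 48 h and the agent 24 h in every group. All cells were of the same line, and the 2 arrays of each siUHRF1 group came from different siRNAs, siUHRF1-1 and siUHRF1-2.

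Keratins are the intermediate filament proteins of epithelial cells. A type I keratin pairs with a type II keratin to build a filament, and the pair in use depends on the tissue. Simple epithelia such as the colon use KRT8 with KRT18, KRT19 and KRT20. Stratified epithelia such as the epidermis use KRT5 with KRT14 in the basal layer and KRT1 with KRT10 above it. Hair keratins, which form the hair shaft, are embedded in a matrix of KRTAPs, small cysteine-rich or glycine- and tyrosine-rich proteins. Type I keratin genes other than KRT18 and several KRTAP families lie in 1 cluster on chromosome 17. The type II keratin genes and KRT18 lie on chromosome 12, and most other KRTAP genes lie on chromosome 21. UHRF1 brings the maintenance DNA methyltransferase to newly copied DNA, and TSA blocks histone deacetylases.

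A level below is the log2 of a probe's signal over the 75th percentile of its array, and a change is a difference between group means of such levels, with its standard error (SE). A change was called when it reached 2-fold and its p, adjusted by Benjamini-Hochberg over all tested probes of the array in a limma fit, was under 0.05. The siCONT arrays of each agent differed by little more than repeated spots did (1.28 times the spot noise under mock and 1.11 times under TSA, against 13.4 and 10.4 times for the siUHRF1 pairs) and were counted as 1 sample wherever n is given. A second adjusted p, from a fit with each siCONT pair averaged, therefore stands beside the first. The labels do not say whether arrays came from separate cultures, so p-values measure only the spread between these arrays. In the siCONT pairs this spread may be technical, and in the siUHRF1 pairs it includes any difference between the siRNAs. All groups share the same estimate of spread in the fit. With siCONT pairs averaged, the spread within groups comes from the siUHRF1 pairs alone. Mock arrays were in slide row 1 and TSA arrays in slide row 2, so agent and row cannot be told apart in any TSA comparison. The siCONT arrays were in slide columns 1 and 2 and the siUHRF1 arrays in columns 3 and 4. Hence siRNA and column cannot be told apart in any UHRF1 comparison. Each array had 43.3% to 48.0% of its probes well above background, and 51 to 67 of the 182 member probes. UHRF1 itself was at 1.98 and 2.01 with siCONT and mock, 0.34 and −0.02 with siUHRF1 and mock, 1.04 and 1.0 with siCONT and TSA, and −1.56 and −2.14 with siUHRF1 and TSA. All 12 colon epithelium markers were well above background on all 8 arrays. Levels of some colon markers changed (given below), and markers of other cell types moved too. The summed signal of 7 fibroblast markers, each over the array's 75th percentile, was 0.24 to 0.28 in siCONT mock, 0.25 to 0.35 in siUHRF1 mock, 0.51 to 0.64 in siCONT TSA and 0.97 to 1.64 in siUHRF1 TSA, with 0, 1, 1 to 2 and 2 to 4 of the 7 above background. The sum over 7 leukocyte and endothelial markers was 0.66 to 0.74, 1.15 to 2.30, 1.33 to 1.39 and 2.48 to 3.16 in the same order. Of the leukocyte markers PTPRC and CD3E, and of the fibroblast markers COL1A2 and COL3A1, were above background on no array. The part of other cell types in the values below was not tested. In bulk RNA, more cells of a type and more RNA per cell cannot be told apart.

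Promoter sequence was not used in choosing the members. RefSeq (GRCh38.p14) gave a promoter for 108 of the 150 genes, as 250 bases before to 50 bases after the start. KRT7, KRT14, KRT15, KRT16, KRT17, KRT18, KRT19, KRT23 and KRT80 were not among them, so the counts leave out many of the keratins described below. The motif TATAA lay on the gene's strand between 40 and 20 bases before the start in 59 of the 108 (54.6%), against 4.12% of 27305 promoters of all genes. It was in 8 of 10 stratified keratins and 0 of 2 simple epithelial keratins that had a promoter. Anywhere in the 300 bases and on either strand it was found in 85.2% of the members and 21.1% of all. The median number of CpG dinucleotides was 2 among members and 14 among all. The 60 bases before the start are shown for 4 chromosome 17 genes that rose with TSA, and for KRTAP3-2 and KRTAP3-3, the nearest neighbours of KRTAP3-1, with TATAA in capitals:
KRTAP3-1: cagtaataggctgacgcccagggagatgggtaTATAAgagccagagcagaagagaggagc
KRTAP3-2: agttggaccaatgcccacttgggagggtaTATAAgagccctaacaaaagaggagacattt
KRTAP3-3: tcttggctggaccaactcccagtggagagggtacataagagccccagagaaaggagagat
KRT34: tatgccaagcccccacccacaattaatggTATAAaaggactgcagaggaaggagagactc
KRT9: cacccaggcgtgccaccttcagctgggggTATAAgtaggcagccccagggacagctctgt
KRTAP4-1: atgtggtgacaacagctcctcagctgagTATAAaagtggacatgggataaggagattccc
These stretches lie on the minus strand at chr17:41009129-41009188, chr17:40999907-40999966, chr17:40994165-40994224, chr17:41382307-41382366, chr17:41572060-41572119 and chr17:41184912-41184971. The motif began 28, 31, 31, 31 and 32 bases before the start in KRTAP3-1, KRTAP3-2, KRT34, KRT9 and KRTAP4-1, and these letters are not in the KRTAP3-3 window shown. Among the 12 member genes called higher with TSA in siCONT cells, 7 had a promoter and 6 of these held the motif near the start. Of the 40 genes tested and not called there, 25 had a promoter and 10 of these held it. The motif was thus in members that rose and in members that did not.

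Most member probes were not well above background in these colon cells. Of the 182, 102 (56.0%) were well above background on no array, against 45.3% of all probes, and 48 (26.4%) were above it on all 8 arrays, against 39.3%. Simple epithelial keratins were the exception, with 9 of 11 probes above background on all arrays. Of the stratified keratins 4 of 23 probes, of the inner root sheath keratins 1 of 10, of the hair shaft keratins 4 of 19, and of the KRTAPs 27 of 110 were. Between these extremes, 7 probes of KRT9, KRT13, KRT31, KRT34, KRT42P, KRTAP3-1 and KRTAP4-1 were above background on both arrays of the siCONT TSA and siUHRF1 TSA groups and of no mock group. Probes of KRT4, KRT14, KRT16 and KRT17 were above it on both arrays of the siUHRF1 TSA group alone.

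KRT8, KRT18 and KRT19, the main filament proteins of the colon epithelium, and KRT7, a simple keratin of ducts, were bright on all 8 arrays and were called in no comparison. The brightest KRT8 probe was at 6.52 and 6.57 in siCONT mock, 6.27 and 5.88 in siUHRF1 mock, 7.06 and 7.07 in siCONT TSA, and 6.92 and 6.65 in siUHRF1 TSA, so the siUHRF1 mock arrays were lowest. KRT18 followed the same order under mock, from 9.29 and 9.24 to 8.80 and 8.56, and stood at 9.35 and 9.37 in siCONT TSA and 9.23 and 9.0 in siUHRF1 TSA. KRT19 lay between 9.46 and 10.07 on all arrays, and KRT7 between 3.24 and 3.62. The largest of their changes was that of a dimmer KRT8 probe with TSA in siCONT cells, 0.89 (SE 0.21, adjusted p 0.0201, 0.289 with siCONT as 1 sample), which is under 2-fold.

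**Figure D1:**
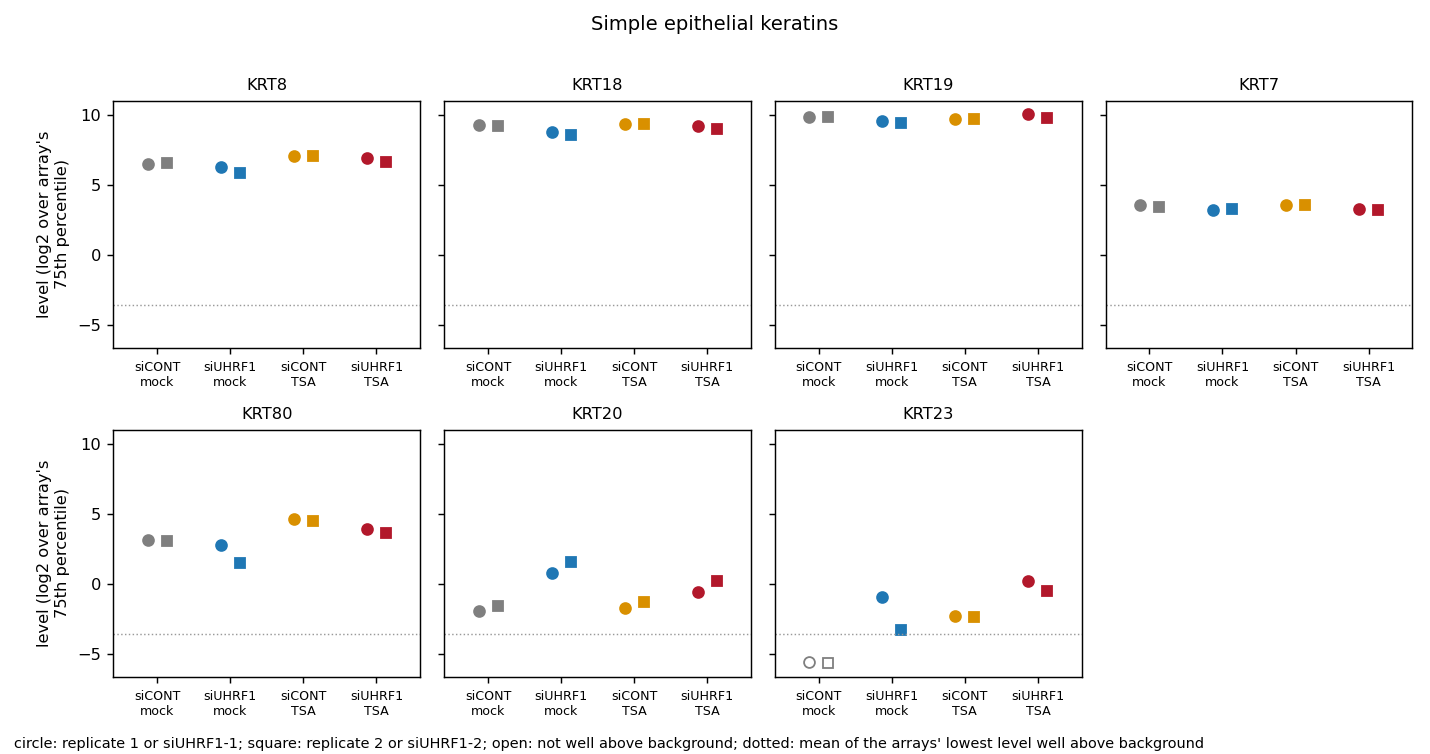
Levels of the 7 simple epithelial keratins (log2 of signal over the array's 75th percentile, brightest probe of each gene) by group, with 1 point per array; panels are not comparable with each other because each is another probe. KRT8 stays between 5.88 and 7.07, KRT18 between 8.56 and 9.37, KRT19 between 9.46 and 10.07 and KRT7 between 3.24 and 3.62, whereas KRT20 is highest in siUHRF1 mock and KRT23 is not above background in siCONT mock (open points).

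KRT20, a keratin of differentiated intestinal cells, and KRT23, a type I keratin annotated in the array files as inducible by histone deacetylase inhibition, were the only members called on UHRF1 depletion under mock. This was 2 of 52 tested member probes, both higher, or 3.85%, beside 3.13% of all 22391 tested probes called higher and 0.987% lower. KRT20 was at −1.89 and −1.58 in siCONT mock, at 0.79 with siUHRF1-1 and 1.61 with siUHRF1-2 under mock, at −1.68 and −1.23 in siCONT TSA, and at −0.56 and 0.22 in siUHRF1 TSA. Both siUHRF1 mock arrays thus exceeded every other array. The rise under mock was 2.94 (SE 0.37, 7.65-fold, adjusted p 0.0134, 0.189 with siCONT as 1 sample). Without siCONT mock array 1 the adjusted p was 0.0891 and without siCONT mock array 2 it was 0.0665. KRT20 then fell by 1.37 on the log2 scale when UHRF1-depleted cells received TSA (SE 0.37, adjusted p 0.0293, 0.0740 with siCONT as 1 sample), and without siUHRF1-2 mock this change was −0.96 with adjusted p 0.110 and without siUHRF1-1 TSA −0.98 with adjusted p 0.132. KRT20 was the only member called lower in that comparison. With both treatments KRT20 remained 1.56 above siCONT mock (SE 0.37, adjusted p 0.0158, 0.0956 with siCONT as 1 sample), a call lost without either siCONT mock array (0.0840 and 0.0505) or siUHRF1-2 TSA (0.0771). Its interaction, the difference between the UHRF1 effects under TSA and mock, was −1.65 and was not called (adjusted p 0.111).

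KRT23 was at −5.55 and −5.61 in siCONT mock, both not well above background, and was above it on the 6 other arrays. Its level was −0.92 with siUHRF1-1 and −3.24 with siUHRF1-2 under mock, −2.23 and −2.37 in siCONT TSA, and 0.22 and −0.48 in siUHRF1 TSA. It was the only keratin gene called in each of the 3 treated groups against siCONT mock. Since the control had only a bound, it was at least 2.50-fold higher with UHRF1 depletion (adjusted p 0.0382, 0.382 with siCONT as 1 sample), at least 2.14-fold higher with TSA (0.0138 and 0.193) and at least 9.62-fold higher with both (0.00167 and 0.0238). The bound compares the mean of the bright group with the lowest level at which any probe of a dim array was well above background, or the dim probe's own level if higher. Those lowest levels were −3.37 and −3.42 on the siCONT mock arrays, near the −3.24 of siUHRF1-2 under mock. The bound with UHRF1 depletion under mock thus rests mostly on siUHRF1-1. Here and below, an adjusted p beside a bound is that of the fitted change and does not test the bound. The fitted change, to which the 2-fold limit was also applied, uses signals of the dim arrays that were not above background. The fitted change under mock, 3.5, was 2.34 without siUHRF1-1 mock and 4.66 without siUHRF1-2 mock, and leaving out any 1 of the siCONT or siUHRF1 TSA arrays ended the first call (adjusted p 0.0539 to 0.180). Leaving out any 1 siCONT array ended the call with TSA (0.0641 to 0.0711). The other KRT23 probe was above background on no array. KRT80, the remaining simple keratin of the list, was at 3.17 and 3.11, 2.79 and 1.51, 4.62 and 4.51, and 3.91 and 3.67 in the group order used above. It rose by 1.43 with TSA in siCONT cells (SE 0.39, adjusted p 0.0297, 0.290 with siCONT as 1 sample) and by 1.64 with TSA in UHRF1-depleted cells (SE 0.39, adjusted p 0.0182, 0.0620), and leaving out any 1 siCONT array ended the first call (adjusted p 0.109 to 0.125) and leaving out any 1 siUHRF1 TSA array ended both (0.0513 to 0.0868). The second change was 2.28 without siUHRF1-1 mock and 1.0 without siUHRF1-2 mock.

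TSA alone raised 14 of 63 tested member probes in siCONT cells, from 12 genes, and lowered none. That is 22.2%, beside 10.4% of all tested probes called higher and 8.21% called lower. The comparison of shares is not independent of the test's entry rule, because 11 of the 14 were above background on both arrays of the TSA group only and had to differ to enter. Among the 48 members above background on every array, 3 (6.25%) were called higher, beside 6.58% of all such probes. With each siCONT pair averaged, 4 members were called, beside 1.56% of all tested probes: both KRTAP3-1 probes, KRTAP4-1 and KRT42P. The median change of tested members was 0.10 and that of all tested probes −0.11.

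KRTAP3-1, a high sulfur KRTAP of the hair shaft, made the largest change of any member. Its coding probe, which ends on the stop codon shown in capitals, lies on the minus strand of hg19 at chr17:39165030-39165089:
KRTAP3-1 coding probe: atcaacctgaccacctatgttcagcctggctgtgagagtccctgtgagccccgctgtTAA
This probe was at −2.67 and −3.61 in siCONT mock, where 1 of 2 arrays was above background, at −3.18 and −2.30 in siUHRF1 mock, at 2.70 and 2.74 in siCONT TSA, and at 4.94 and 5.49 in siUHRF1 TSA. The background-corrected intensities behind these levels ran from 11.7 to 30.5 under mock, stood at 1090 and 1125 in siCONT TSA, and reached 4585 and 7319 in siUHRF1 TSA. No TSA array overlapped a mock array, and both siUHRF1 TSA arrays exceeded both siCONT TSA arrays. The change with TSA in siCONT cells was 5.85 (SE 0.41, 57.9-fold, adjusted p 0.000513, 0.0359 with siCONT as 1 sample), and with both treatments 8.35 (326-fold, 0.000122 and 0.00492). UHRF1 depletion alone moved it by 0.40 (SE 0.41, adjusted p 0.537). Under TSA, UHRF1 depletion raised it a further 2.49 (SE 0.41, adjusted p 0.0149, 0.118 with siCONT as 1 sample), a call that was lost without either siCONT TSA array (adjusted p 0.0913 and 0.0896) or without siUHRF1-2 TSA (0.0561). A second probe, 3′ of the stop codon, went from −5.40 and −5.43 in siCONT mock to 4.22 and 4.22 in siCONT TSA and to 6.60 and 7.07 in siUHRF1 TSA. It was above background on the TSA arrays only, at least 196-fold higher with TSA and at least 1202-fold higher with both treatments. Between the TSA groups it rose by 2.62 with UHRF1 depletion (SE 0.33, adjusted p 0.00746, 0.114 with siCONT as 1 sample), a call lost without either siCONT TSA array (0.0524 and 0.0521). The interaction of the 2 treatments was 2.10 on the coding probe (adjusted p 0.0860) and 1.41 on the other (0.117), neither called.

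**Figure D2:**
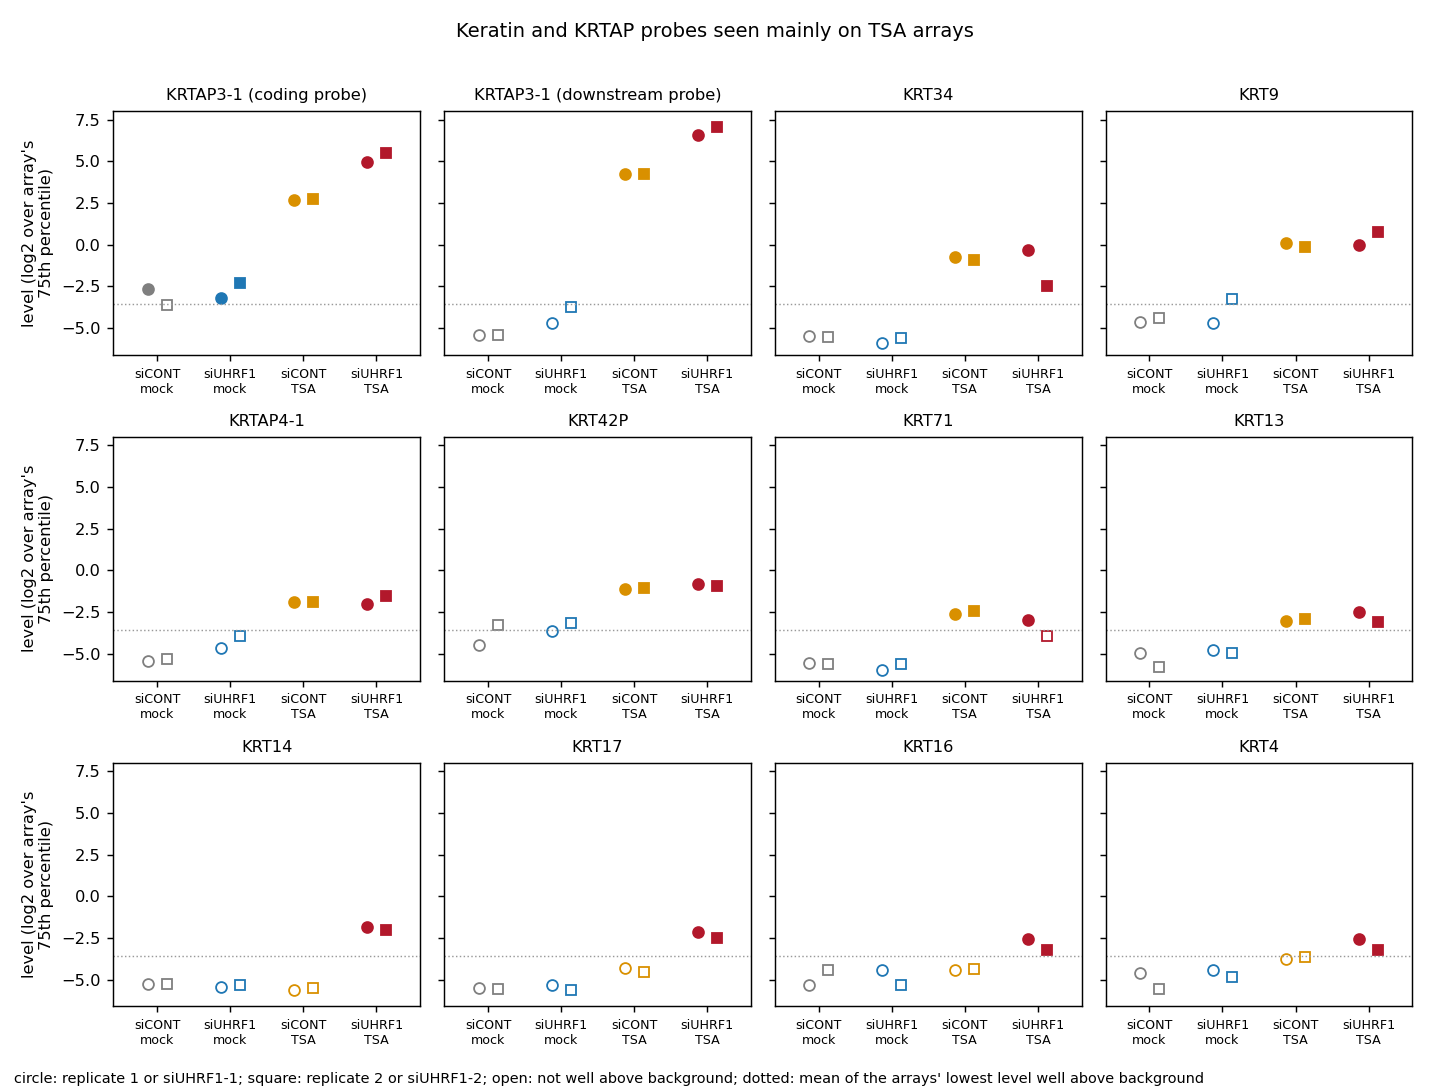
Levels (log2 of signal over the array's 75th percentile) of 12 member probes by group, with 1 point per array; open points are not well above background, and panels show different probes and are not comparable with each other. The first 8 panels hold probes that are bright with TSA in siCONT and mostly in UHRF1-depleted cells, led by KRTAP3-1 from −3.61 to 5.49 on the coding probe, and the last 4 hold keratins above background in siUHRF1 TSA alone.

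KRT34, a hair shaft keratin, KRT9, the keratin of palm and sole epidermis, and KRTAP4-1, an ultrahigh sulfur KRTAP, were well above background on all 4 TSA arrays and on no mock array. KRT34 was at −5.49 and −5.56 in siCONT mock, −5.89 and −5.59 in siUHRF1 mock, −0.72 and −0.90 in siCONT TSA, and −0.34 and −2.48 in siUHRF1 TSA. It was at least 6.0-fold higher with TSA (adjusted p 0.00291, 0.0903 with siCONT as 1 sample) and at least 3.97-fold higher with both treatments (0.00308 and 0.0354). The fitted KRT34 change with both treatments, 4.11, was 3.05 without siUHRF1-1 TSA and 5.18 without siUHRF1-2 TSA. KRT9 was at −4.63 and −4.39, −4.69 and −3.25, 0.09 and −0.16, and −0.03 and 0.77 in the same order. Its bounds were 10.3-fold with TSA (0.00169 and 0.0679) and 13.6-fold with both (0.000740 and 0.0139). KRTAP4-1 rose to −1.88 and −1.88 in siCONT TSA and −2.0 and −1.55 in siUHRF1 TSA, at least 2.86-fold and 3.08-fold higher than siCONT mock (0.000618 and 0.0476 for TSA). Between the TSA groups UHRF1 depletion moved KRT34 by −0.60, KRT9 by 0.41 and KRTAP4-1 by 0.10, none of which was called.

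Smaller rises with TSA in siCONT cells were called for further genes. KRT42P, a type I keratin pseudogene, went from −4.45 and −3.24 in siCONT mock to −1.11 and −1.04 in siCONT TSA and −0.83 and −0.92 in siUHRF1 TSA, at least 4.69-fold and 5.38-fold higher. Its fitted changes, 2.77 and 2.97, were 2.16 and 2.36 without siCONT mock array 1 and 3.37 and 3.57 without siCONT mock array 2. The other KRT42P probe was above background on no array. KRT71, an inner root sheath keratin on chromosome 12, was at least 1.86-fold higher (adjusted p 0.00123, 0.0649 with siCONT as 1 sample), reaching −2.60 and −2.41 in siCONT TSA but only −2.97 and −3.90 in siUHRF1 TSA, the last of which was not above background. KRT13, a keratin of moist stratified epithelia, was at least 1.34-fold higher (0.00300 and 0.0686). KRT15, a basal stratified keratin measured on all arrays, rose from 0.83 and 0.81 to 2.23 and 2.32, a change of 1.46 (SE 0.22, adjusted p 0.00428, 0.146). KRTAP12-2 rose by 1.07 (SE 0.19, adjusted p 0.00750, 0.164), which ended without siCONT mock array 2 (0.90) or siCONT TSA array 1 (0.92). Of KRTAP9-7, 2 probes sharing 50 bases were called, at least 1.51-fold and 1.25-fold higher. The call of the second, whose fitted change was 1.26 (SE 0.40, adjusted p 0.0492), was lost on leaving out any 1 array but siCONT mock array 2 (highest adjusted p 0.204), and the fitted change was 0.60 without siCONT mock array 1 and 1.92 without siCONT mock array 2.

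Stratified epithelial keratins made up the largest group of calls when both treatments were combined. Against siCONT mock, 8 of 10 tested stratified probes were called higher and none lower. Of the 8, 6 (KRT4, KRT9, KRT13, KRT14, KRT16 and KRT17) entered the test only through TSA arrays and so had to be higher, and of the 4 above background on all arrays KRT10 and KRT15 were called and KRT3 and KRT78 were not. With TSA alone in siCONT cells it was 3 of 6, beside 10.4% of all tested probes. Of the 3, KRT9 and KRT13 entered only through TSA arrays and so had to be higher. With UHRF1 depletion alone it was 0 of 4, beside 3.13% (0 also at an unadjusted p under 0.05 and 2-fold). These comparisons tested unlike sets of probes, so their counts are not comparable with each other. KRT4, KRT14, KRT16 and KRT17 were tested with both treatments and not with TSA alone, because they were above background on the siUHRF1 TSA arrays only. Over all classes, 16 of 63 member probes were called higher with both treatments (25.4%, beside 14.5% of all probes) and 2 lower (3.17%, beside 11.1%), and 14 of the 18 were above background on both arrays of 1 of the groups only. Among members above background on all arrays 3 of 48 (6.25%) were higher, beside 8.02% of such probes. With siCONT pairs averaged, 13 members were called, all of them among the 18, beside 15.4% of all probes.

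KRT14, the partner of KRT5 in basal keratinocytes, was at −5.24 and −5.26 in siCONT mock, −5.43 and −5.30 in siUHRF1 mock, −5.63 and −5.52 in siCONT TSA, and −1.82 and −2.0 in siUHRF1 TSA. Only the last 2 arrays were above background, so the level was at least 2.80-fold above siCONT mock (adjusted p 6.3e-05, 0.00598 with siCONT as 1 sample) and at least 3.55-fold above siCONT TSA (0.000404 and 0.0313). The other KRT14 probes did not follow. One was above background on no array and the other on siCONT TSA array 1 alone, at −2.31 there. KRT17, induced in stressed epidermis, was at −5.52 and −5.57 in siCONT mock, −5.33 and −5.60 in siUHRF1 mock, −4.29 and −4.52 in siCONT TSA and −2.13 and −2.51 in siUHRF1 TSA. Again only the last 2 were above background, at least 2.11-fold above siCONT mock (0.000149 and 0.00753) and at least 2.68-fold above siCONT TSA (0.00319 and 0.0751). These were the 2 members with a called interaction, 3.78 for KRT14 (SE 0.18, adjusted p 0.00270, 0.189 with siCONT as 1 sample) and 2.01 for KRT17 (SE 0.26, 0.0212 and 0.358), both fitted with 3 of the 4 groups not above background. That is 2 of 67 tested probes, or 2.99%, beside 2.83% of all probes with a called positive interaction and 2.07% with a negative one. KRT14 and KRT17 entered this test only through the siUHRF1 TSA arrays, so the entry rule favoured a positive interaction. With siCONT pairs averaged the interaction called no probe of the array (0%), and 3 members passed an unadjusted p under 0.05 with a difference of 2-fold. Leaving out any 1 siCONT array ended the KRT17 interaction (adjusted p 0.0661 to 0.0910).

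KRT16, a partner of KRT6 in stressed epidermis, reached −2.56 and −3.22 in siUHRF1 TSA from −5.30 and −4.41 in siCONT mock, at least 1.42-fold higher (adjusted p 0.0110, 0.0565 with siCONT as 1 sample). Without siCONT mock array 1 its adjusted p was 0.0592 and without siUHRF1-1 TSA 0.0617. KRT4, the partner of KRT13 in moist epithelia, reached −2.53 and −3.21 and was at least 1.44-fold higher (0.00423 and 0.0243). KRT13 itself was at −2.47 and −3.11 there, at least 1.52-fold above siCONT mock (0.00149 and 0.0143). The suprabasal keratin KRT10 was bright on all arrays and rose from 4.8 and 4.85 in siCONT mock to 6.11 and 6.57 in siUHRF1 TSA, a change of 1.52 (SE 0.21, 2.86-fold, adjusted p 0.00237, 0.0478). Its siCONT TSA arrays, at 5.77 and 5.76, lay between, and that change of 0.94 was under 2-fold. KRT5 and KRT1, the type II partners of KRT14 and KRT10, were above background on no array. KRT15 in siUHRF1 TSA stood at 2.64 and 2.00 (change 1.5, adjusted p 0.00262, 0.0499).

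Of the genes called with both treatments, KRT31, a hair shaft keratin, rose by 1.65 (SE 0.48, adjusted p 0.0312, 0.0658 with siCONT as 1 sample). It was at −3.20 and −4.22 in siCONT mock, of which 1 array was above background, and at −1.58 and −2.53 in siUHRF1 TSA. Leaving out siCONT mock array 2 brought it to 1.14 (adjusted p 0.149) and siUHRF1-1 TSA to 1.17 (0.144), and without either siUHRF1 mock array the adjusted p was 0.0536. The 2 probes called lower were both KRTAPs. KRTAP19-5, a high glycine-tyrosine KRTAP, went from 0.34 and 0.11 in siCONT mock to −0.70 and −0.88 (change −1.01, SE 0.14, adjusted p 0.00246, 0.0665), and its change was −0.90 without siCONT mock array 1 and −0.92 without siUHRF1-2 TSA, both under 2-fold. One KRTAP5-10 probe was at −2.37 and −2.99 in siCONT mock and not above background in siUHRF1 TSA, at least 1.82-fold lower (adjusted p 0.0257, 0.0980), which was lost without siCONT mock array 1 (−0.70, 0.134) or siUHRF1-2 TSA (−0.80, 0.120). The other KRTAP5-10 probe, above background on all arrays, changed by −0.09 and was not called.

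**Figure D3:**
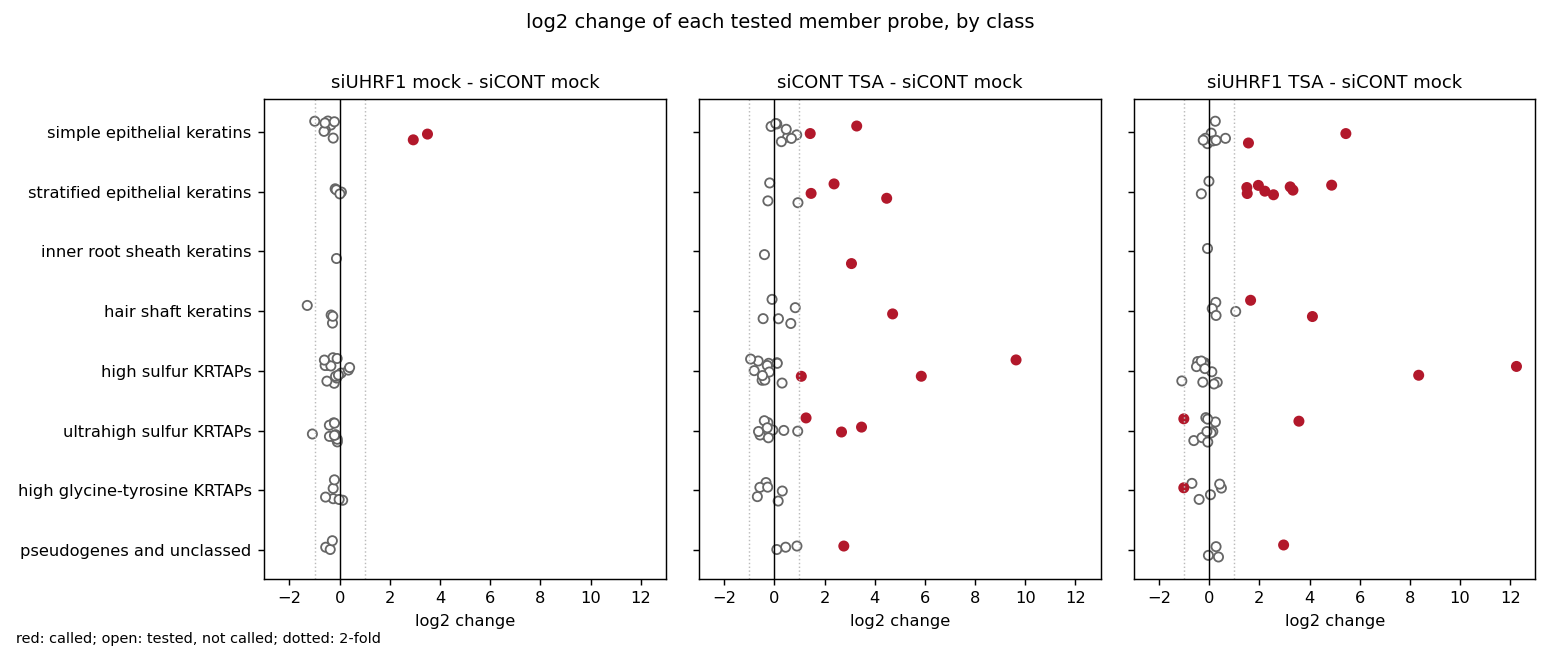
log2 change of every tested member probe (x axis) by class (rows) for UHRF1 depletion, TSA, and both against siCONT mock; red points were called and open points were tested and not called. UHRF1 depletion alone called KRT20 and KRT23, and with both treatments 8 of 10 tested stratified keratin probes were called, 6 of which entered the test only through TSA arrays, so classes are not comparable with each other.

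UHRF1 depletion under TSA, compared with siCONT under TSA, called 4 of 65 member probes higher and none lower. This was 6.15%, beside 5.39% of all tested probes higher and 2.87% lower, and the 4 were KRT14, KRT17 and both KRTAP3-1 probes. Of these, KRT14 and KRT17 entered the test only through the siUHRF1 TSA arrays and so had to be higher. With siCONT pairs averaged only KRT14 was called, beside 0.692% of all probes. Under mock the same averaging left 0 members, beside 0.0223% of all probes, with 3 members at an unadjusted p under 0.05 and 2-fold. TSA in UHRF1-depleted cells called 16 of 61 member probes higher and 1 lower (26.2% and 1.64%, beside 11.7% and 9.01% of all probes). These shares are not independent of the entry rule, because 11 of the 17 called were above background on both arrays of 1 group only. Among the 48 members above background on all arrays, 4 were higher (8.33%, beside 6.65%). With siCONT pairs averaged that comparison, which uses no siCONT array but shares the fit's estimate of spread, called 14 members, beside 17.6% of all probes. KRT31 and KRT86, hair shaft keratins like KRT34, were called there too. KRT31, above background on neither siUHRF1 mock array, was at least 2.84-fold higher (adjusted p 0.0343), a call lost without either siUHRF1 mock array (0.100 and 0.111) or siUHRF1-1 TSA (0.156). KRT86, a type II hair keratin, rose by 2.35 (SE 0.58, adjusted p 0.0217, 0.0624), from −0.49 and −2.47 in siUHRF1 mock to 0.79 and 0.95. Only the siUHRF1-2 mock array was low, since both siCONT mock arrays were at −0.33 and −0.05, and without it the change was 1.36, and without siUHRF1-1 mock 3.34. The call was lost without either siUHRF1 TSA array (adjusted p 0.0794 and 0.0904). KRT4, KRT14, KRT16 and KRT17 were called in that comparison as well, at least 1.66-fold, 3.23-fold, 1.63-fold and 2.43-fold higher. The calls of KRT4 and KRT16 were lost without siUHRF1-2 mock (adjusted p 0.0563 and 0.0527) or siUHRF1-1 TSA (0.0638 and 0.0723). The 6 comparisons share arrays and are not independent of each other.

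Member calls were counted by chromosome. Of the 14 probes called higher with TSA in siCONT cells, 11 lay on chromosome 17, where 27 member probes were tested, 2 of 16 tested on chromosome 12 and 1 of 14 on chromosome 21. With both treatments it was 15 of 27 on chromosome 17, 1 of 16 on chromosome 12 and 0 of 14 on chromosome 21. The entry rule bears on these counts as above, since 11 of the 14 and 14 of the 18 called members were above background on both arrays of 1 group only, and no share is read from them. Within the chromosome 17 cluster, called genes were interspersed with genes that were not. KRTAP3-3, 15.0 kb from the KRTAP3-1 coding probe in hg19, was at 2.15 and 1.95 in siCONT mock and 2.10 and 2.39 in siUHRF1 TSA on its bright probe (change 0.19). KRTAP1-3, 20.9 kb to the other side, changed by −0.33 on its brightest probe, and KRTAP2-4, at 56.3 kb, by −0.17. The KRTAP3-2 probe, 9.3 kb away, was above background on no array, although its promoter carries the motif shown above.

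**Figure D4:**
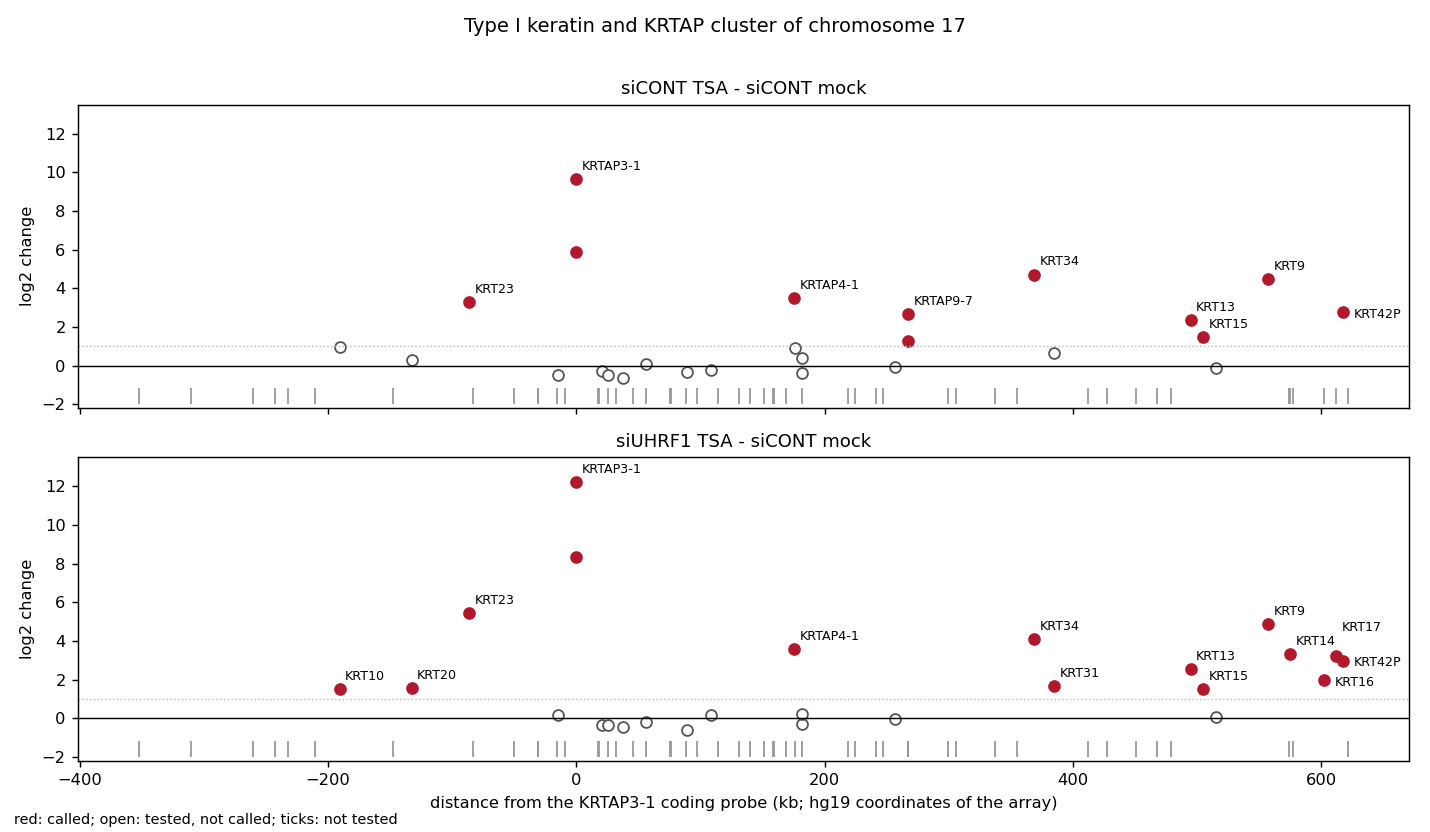
log2 change of member probes of the chromosome 17 cluster (y axis) against their distance in kb from the KRTAP3-1 coding probe (x axis), for TSA and for both treatments against siCONT mock; red points were called, open points tested and not called, and grey ticks mark probes not tested. KRTAP3-1 stands out, its tested neighbours within 100 kb lie between −0.65 and 0.19 except KRT23 at −86.1 kb, and called keratins lie on both flanks.

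Of the KRTAPs measured on every array, only KRTAP12-2 was called with TSA in siCONT cells and only KRTAP19-5, lower, with both treatments. Among all probes above background on every array, 6.58% and 8.02% were called higher in these comparisons. Higher calls were thus few among all such probes as well, and whether KRTAPs differ from them was not tested. In 6 genes (KRTAP1-3, KRTAP2-4, KRTAP3-3, KRTAP4-8, KRTAP5-4 and KRTAP5-11) 1 probe was above background on all 8 arrays and another on none, and the bright probes had a median GC content of 60% against 39.2% for the dim ones. Over all members the medians were 55.0% for probes above background everywhere and 45.0% for probes above it nowhere, and over the whole array 43.3% and 41.7%. The part of GC content in these signals was not tested. KRTAP genes are also near copies of each other. Of the member probes, 14 pairs from different genes aligned to each other, over 21 to 60 bases, 12 of them within the KRTAPs. A pair that differs at 3 of 60 positions is shown with the differences in capitals, in hg19 at chr11:71279921-71279980 and chr11:71290760-71290819:
KRTAP5-10 (its uncalled probe): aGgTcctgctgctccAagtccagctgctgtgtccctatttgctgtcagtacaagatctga
KRTAP5-11: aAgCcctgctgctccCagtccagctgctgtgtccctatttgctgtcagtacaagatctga
Whether such probes read each other's transcripts was not tested. The second KRTAP4-1 probe matches a KRTAP4-8 probe at 52 of 60 positions, and the KRTAP4-8 probe was above background on all arrays and changed by −0.36 with TSA in siCONT cells. Only the siCONT TSA arrays had it above background, at −2.95 and −3.20, and its difference from siCONT mock was not called, unlike that of the first KRTAP4-1 probe. Only in siCONT mock was the dimmer KRTAP10-12 probe above background on each array, at −2.88 and −2.26, and was called in no comparison.

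Partner genes of the keratins were examined as lists, each gene by its brightest probe. Of 22 desmosome and plakin genes, which anchor keratin filaments, 15 were above background on all arrays, and with both treatments 2 of 16 tested were higher and 3 lower, with a median change of −0.63. Over all tested probes of the array, 14.5% were higher and 11.1% lower in that comparison, and the median was −0.14. EPPK1 (epiplakin) was the largest, at −2.57 in siCONT mock, 1.14 in siUHRF1 mock, 0.43 in siCONT TSA and 2.78 in siUHRF1 TSA (means of 2 arrays), rising by 3.71 with UHRF1 depletion (adjusted p 0.00694, 0.0784 with siCONT as 1 sample) and 5.36 with both (0.000154 and 0.00529). PPL (periplakin) rose by 1.54 with TSA (0.00717 and 0.172), LAD1 (ladinin) changed by −1.51 with both (0.000532 and 0.0272), and COL17A1, a hemidesmosome collagen, was at least 7.46-fold lower with TSA in UHRF1-depleted cells (0.00116 and 0.00787). Of 45 cornified envelope and epidermal differentiation genes, 44 were on the array, 24 of them above background nowhere and 10 on all arrays. With both treatments 5 of 15 tested were higher and none lower, beside the same 14.5% and 11.1%. The entry rule bears on this count too, and no share is read from it. SBSN (suprabasin) was at least 21.3-fold higher with both (0.00245 and 0.0297), and TGM1, the transglutaminase that crosslinks the envelope, rose by 2.89 (0.000125 and 0.00781). CALML5 rose by 4.94 with UHRF1 depletion under mock (0.00468 and 0.0657) and fell by 3.61 on the log2 scale when TSA was added to depleted cells (0.000976 and 0.00457). DMKN (dermokine) rose by 2.38 in that comparison (0.00166 and 0.0106). LOR, FLG2 and HRNR, late proteins of the cornified layer, were above background on no array.

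Of 24 regulators of keratinocyte and hair keratin genes, 1 of 16 tested was higher with both treatments and 2 were lower, beside 14.5% and 11.1% of all probes. With TSA in siCONT cells 1 of 15 was higher and 3 lower, beside 10.4% and 8.21%. LHX2, a hair follicle factor, was at least 2.08-fold higher (adjusted p 0.00850, 0.0593 with siCONT as 1 sample), while OVOL1 changed by −2.16 (0.0197 and 0.118). ZNF750, a factor of epidermal differentiation, was at least 4.89-fold higher with UHRF1 depletion under mock (0.0281 and 0.311). TP63, DLX3 and HOXC13, the last a known activator of hair keratin genes, were above background on no array. Among 14 hair shaft and inner root sheath companions, 8 were above background nowhere. CRYM rose by 4.25 with TSA (0.00111 and 0.0572) and 5.52 with both (0.000287 and 0.00856), S100A3, a hair cuticle calcium-binding protein, was at least 4.43-fold and 8.06-fold higher (0.0265 and 0.255, 0.00906 and 0.0694), and LIPH changed by −1.42 with both (0.000320 and 0.0256). Of the 16 other intermediate filament genes, 6 of 12 tested were higher and 3 lower with both treatments, beside 14.5% and 11.1% of all probes. Only 8 of the 16 were above background on all arrays. The entry rule bears on these counts as well, and no share is read from them. VIM (vimentin) was above background on the TSA arrays only, at least 14.1-fold higher with TSA (0.000451 and 0.0359) and 21.2-fold with both. PRPH (peripherin) rose by 5.43 with both (0.000349 and 0.00961), NEFH (a neurofilament subunit) was at least 7.09-fold higher (0.000458 and 0.0111) and SYNM (synemin) at least 1.64-fold (0.000202 and 0.00995).

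Marker lists of cell types were read beside the keratins. Of the 12 colon markers, none was higher and 3 were lower with TSA in siCONT cells, beside 10.4% and 8.21% of all probes. In depleted cells none was higher and 5 were lower with TSA, beside 11.7% and 9.01%. With UHRF1 depletion under mock 2 were higher and none lower, beside 3.13% and 0.987%. With both treatments 1 was higher and 3 were lower, beside 14.5% and 11.1%. Of the colon markers, GPA33 changed by −5.49 with TSA (adjusted p 0.000414, 0.0359 with siCONT as 1 sample), LGALS4 rose by 3.1 with UHRF1 depletion under mock (0.00198 and 0.0620), as KRT20 did, and VIL1 changed by −2.50 with TSA in depleted cells (0.00366 and 0.0206), whereas CDX2 stayed between 5.95 and 6.02 in the group means. Of 8 keratinocyte markers, the 3 called with both treatments were KRT10 and KRT14, higher, and COL17A1, lower. The 4 that are no keratins had a summed signal of 0.33 to 0.44 in siCONT mock, 0.56 to 1.05 in siUHRF1 mock, 0.20 to 0.21 in siCONT TSA and 0.12 to 0.15 in siUHRF1 TSA, where none was above background. The higher levels of stratified keratins were measured on arrays on which TP63 and DSG3, among these 4, were not above background. Summed over all 8, keratins included, the signal was 28.3 to 29.3 in siCONT mock and 25.9 to 36.2 in siUHRF1 mock. It was 54.5 to 54.7 in siCONT TSA and 69.6 to 95.7 in siUHRF1 TSA. COL1A1 was at least 3.07-fold and 6.66-fold higher with TSA and with both (0.00399 and 0.108, 0.00108 and 0.0183), THY1 at least 3.15-fold with both (0.000905 and 0.00710), and VWF at least 8.03-fold and 15.0-fold with TSA and with both (0.000384 and 0.0376, 0.000125 and 0.00565).

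The balance of higher and lower calls depended on how the arrays were centred. With both treatments, 56.8% of all called probes were higher in the setting used here, 31.6% when arrays were centred on their medians, which moved the median change of all tested probes from −0.14 to −0.54, and 72.0% when the 75th percentile was taken over probes detected everywhere (median 0.10). For UHRF1 depletion under TSA the shares were 65.2%, 29.1% and 75.5%, for TSA in depleted cells 56.5%, 30.1% and 68.2%, for the interaction 57.8%, 24.2% and 61.4%, and for TSA in siCONT cells 55.8%, 52.3% and 66.2%. Of the members called for UHRF1 depletion under TSA, 4 of 4 were higher in the setting used here, 4 of 8 with median centring and 4 of 5 with quantile normalization.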

How the data were processed

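RNA of 8 DLD1 samples was hybridised, 1 sample per array, to Agilent's SurePrint G3 human expression design (v2). Per the file headers and the submitters' processing notes, the authors scanned them in the Cy3 channel and extracted spots with Agilent Feature Extraction 10.7, and the intensity used here is the deposited processed signal, already background-subtracted, with no normalization between arrays. Spots flagged as outliers were left out, spots of a probe were averaged, and log2 intensity minus the array's 75th percentile over non-control probes was taken as the level. The deposited series matrix values lay within 0.995 to 1.005 times these signals and served as an alternative. A probe was tested if well above background, by the scanner's flag, on both arrays of at least 1 group of the comparison, which 52 to 67 of 182 member probes were. Tests were two-sided limma (version 3.58.1, R 4.3.3) fits of 4 group means over all 8 arrays, checked on simulated data. With 2 arrays per group, of which the siCONT pairs count as 1 sample, the number of arrays limits the precision. Of the member probes, 170 matched RefSeq and none was renamed; probe positions are hg19. Named genes were all simple epithelial keratins, up to 12 called member probes in each direction per comparison, members above background on both arrays of 1 group only or of all groups but 1, and up to 4 genes of each other list with the largest called change. A gene was given by its probe with the highest mean over arrays. Lists were described by counts and medians, with no set test. The members and lists were chosen with earlier results of these data known. Alternatives were other scalings, normexp background correction, other filters on dim probes, the siCONT pairs averaged, a replicate block, the methods' test, and each array left out in turn. Some genes chosen by the rule for named genes are not reported here.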

Additional observations from a re-analysis of the deposited data

Results flagged for a closer look

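KRT14 (probe at chr17:39740013-39740072, hg19) and KRT17 (chr17:39776976-39777035) were set apart because the effect of UHRF1 depletion differed between TSA and mock, by the interaction term of the limma fit. The difference of log2 changes was 3.78 for KRT14 and 2.01 for KRT17. Under TSA, KRT14 was at least 3.55-fold and KRT17 at least 2.68-fold higher with UHRF1 depletion, and under mock neither probe was bright enough to be tested. In 3 of the 4 groups neither probe was well above background, so the size of the interaction depends on signals at background. Both probes entered the test only through the siUHRF1 TSA arrays, so the entry rule favoured a positive interaction. With normexp background correction the interaction was 0.89 for KRT14 and 0.67 for KRT17. Neither was called with the siCONT pairs averaged, with adjusted p 0.189 and 0.358. The other KRT14 probes did not follow the one named.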

How the results depend on the processing

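Beside the 2, 14, 18, 4, 17 and 2 members called for UHRF1 depletion under mock, TSA in siCONT, both treatments, UHRF1 depletion under TSA, TSA in depleted cells and the interaction, the deposited matrix values changed no call. With each siCONT pair averaged the counts were 0, 4, 13, 1, 14 and 0, and among probes above background on all arrays 1, 3, 4, 1, 5 and 0. In the latter, the 1 for UHRF1 depletion under TSA was KRT20. It was not among the 4 called in the setting used here, where its limma change was 1.29 (SE 0.37, adjusted p 0.0621). Normexp correction gave 1, 7, 7, 3, 9 and 2, and turned 1 change, that of the dimmer KRTAP9-7 probe with TSA, to −0.0037. Median centring gave 1 for UHRF1 depletion under mock and 8 under TSA. Without a filter on dim probes the first comparison and the interaction gave 1 each, and quantile normalization gave 1 for the interaction. The methods' t-test at their unadjusted threshold gave 1 for UHRF1 depletion under mock and 11 for TSA in depleted cells, and after Benjamini-Hochberg 0, 10, 7, 0 and 0 in the first 5 comparisons. Leaving out 1 array at a time gave 0 to 4, 10 to 13, 15 to 20, 2 to 7, 12 to 19 and 1 to 9. Without siUHRF1-1 mock or siUHRF1-2 mock the interaction gave 4 and 9, UHRF1 depletion under TSA 7 and 7, and under mock 4 and 4; without siCONT mock array 2 the last gave 0, and without any other single array 1. Without either siCONT TSA array, UHRF1 depletion under TSA gave 2, and without either of these or siCONT mock array 2 the interaction gave 1. The cause was not tested. With the replicate number as a block the counts were 3, 14, 18, 5, 18 and 3 and no named call was lost. In the siUHRF1 groups the number marks the siRNA, and deviations of same-numbered arrays correlated at 0.337 between mock and TSA. In the other pairs of groups they share only a number (−0.056 to 0.074). Of 57 called changes of members, 46 to 54 kept their call with 1 array left out, 32 with siCONT pairs averaged and 25 with normexp. The number of arrays limits the precision, and probes not above background in a group have only a bound there.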
